A study of Mus musculus with 34 samples.

Results

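Imprinted genes were followed in RNA of 2 C57BL/6 mouse embryonic stem (ES) cell lines, D4 and C2, on the Affymetrix arrays MOE430A and MOE430B. The genes were taken from a list of 45 known imprinted genes, of which 41 had a probe set that the array annotation ties to 1 gene symbol. Each of the 41 was represented by its brightest probe set over both array types, out of 105 probe sets in all and of 18193 genes with such a probe set. A gene was tested where that probe set stood above the array's median signal in at least 2 of the 17 RNAs, which held for 31 of the 41, and 18 were above the median in all 17. Of the tested genes, 14 are expressed from the paternal allele, 13 from the maternal allele, and 4 (Grb10, Gnas, Blcap and Inpp5f) from an allele that switches with tissue or isoform. All 14 paternally expressed genes are imprinted widely, while 8 of the 13 maternally expressed genes (Ascl2, Cd81, Commd1, Copg2, Nap1l4, Ppp1r9a, Tssc4 and Ube3a) are known as imprinted in certain tissues, such as placenta or brain, and may use both alleles elsewhere. The arrays read the sum of both alleles, so every value below is a total level and not an allelic one.

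Both lines derive from blastocysts and grew with LIF at 5% CO2 and 37 C on mouse embryonic fibroblast feeders. For the late passage cells, grown in Thromb-XTX-WES medium, high chimerism and germline transmission are recorded. They are split into detached cells (2 RNAs of D4, 3 of C2) and attached cells (3 RNAs of each line). Early passage RNAs (3 of each line) came from cells in DMEM with 15% fetal bovine serum, for which the labels give low chimerism and no germline transmission. Passage, medium and chimerism changed together and cannot be told apart. The labels name the feeders as the contaminating cell type at a purity of about 90%. What detached and attached cells were held to or freed from is not stated. Neither is it stated whether a group's RNAs were independent cultures, so the p-values rest on a variation among RNAs that could be technical.

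Genomic imprinting marks a small set of genes by DNA methylation laid down in the sperm or the egg, so that 1 parental copy is used and the other is silent. Many of the genes act on growth of the fetus and the placenta, with paternally expressed genes often promoting it and maternally expressed genes often restraining it. ES cells are known in the field for variable imprinting, since culture can change the methylation at these loci. Levels are given as log2(signal + 16), and a change is a difference of group means on that scale. A gene was called at an adjusted p under 0.05 in limma, fitted over all probe sets of an array type with Benjamini-Hochberg adjustment. Probe sets differ in affinity, so levels are compared between RNAs and not between genes.

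The arrays had been scaled to 1 level, with trimmed means between 1500.4 and 1500.6 on MOE430A and between 1500.1 and 1500.3 on MOE430B. The D4 attached RNA 3 stood apart by an actin 3′ to 5′ ratio of 1.837 on MOE430A, against 0.887 to 1.212 in the other RNAs, and by another fluidics protocol. The C2 attached RNA 1 stood apart by a raised low end of its signals, with a 5th percentile of 109.3 on MOE430A. On MOE430A, which held 26 of the 31 tested probe sets, all C2 arrays and the attached D4 arrays were scanned on 1 day, and the detached and early D4 arrays on another. On MOE430B the early D4 arrays and that of C2 early RNA 2 were of 1 chip lot, and all others of another. Lot and passage therefore cannot be told apart in D4 on that array type. All 13 ES cell markers were above the array median in all 17 RNAs, and Pou5f1 averaged 14.13, 13.74 and 13.51 in detached, attached and early D4 cells. Feeder fibroblast genes fell with late passage. Of 19 tested, 14 were called lower in late than in early RNAs, with a median change of -1.57, beside 180 of 14060 genes tested (1.28%). The summed signal of the 23 with a probe set was 36710 to 88930 in late D4 RNAs, against 99430 to 253000 in early D4 RNAs. In C2 that sum was 39870 to 76760 in late RNAs, against 80800 to 161100 in early RNAs. The feeder markers Lum, Twist1 and Pdgfrb were above the array median in 0 RNAs. In bulk RNA, fewer feeder cells and less of their RNA per cell cannot be told apart.

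Averaged over both lines, 3 imprinted genes were called lower in late than in early passage cells by their brightest probe set. These were Igf2, the fetal growth factor IGF2, at 2.65-fold lower, Sgce, the membrane protein epsilon-sarcoglycan, at 1.79-fold lower, and Igf2r, the receptor that clears IGF2, at 1.61-fold lower. No imprinted gene was called higher. In the single lines, 0 imprinted genes were called in C2 and only Sgce in D4. Over both lines, the second tested probe sets of Igf2r and Sgce were not called. The 3 calls among 31 genes stand beside 261 calls among 14060 genes tested (1.86%), of which 180 (1.28%) were lower in late RNAs. At an unadjusted p under 0.05 the counts were 12 of 31 imprinted genes and 2135 of 14060 genes. Between the late states, detached and attached, and between the lines, D4 and C2, no imprinted gene was called.

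**Figure D1:**
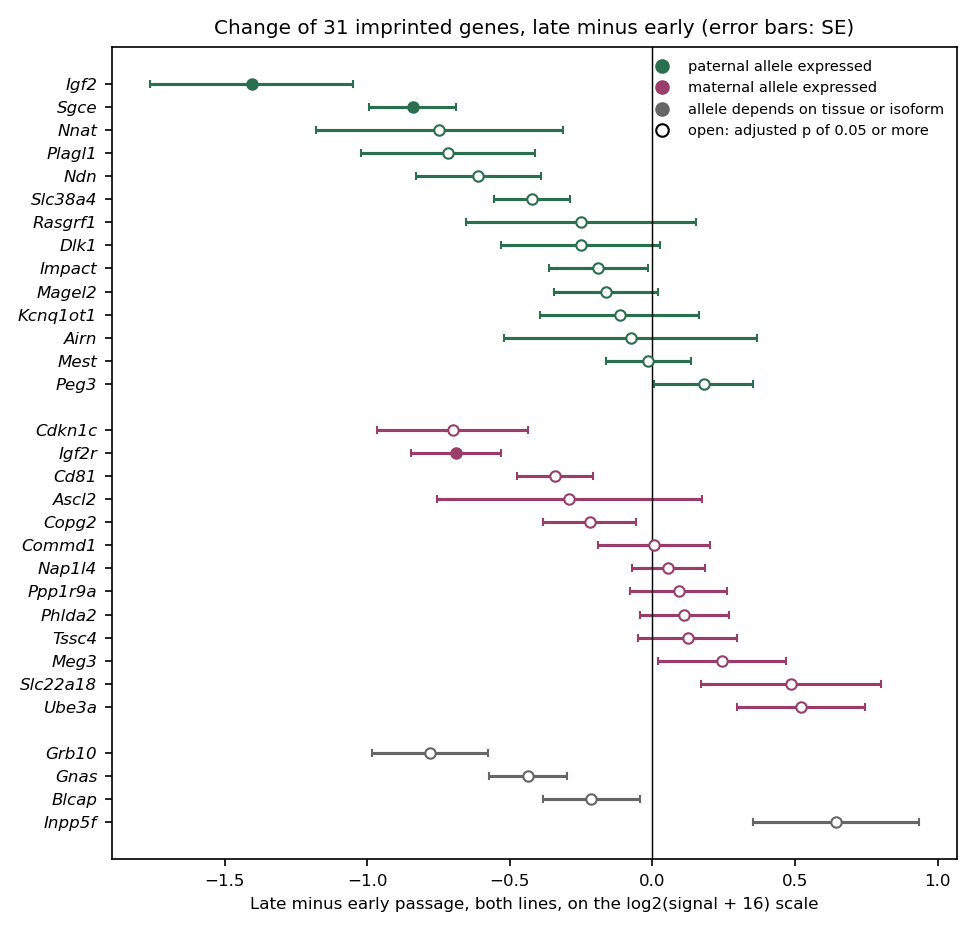
Change of the 31 tested imprinted genes between late and early passage over both lines, on the log2(signal + 16) scale, with the standard error as bars and filled points where the adjusted p was under 0.05. Each gene is shown by its brightest probe set. Igf2, Sgce and Igf2r are the filled points, 13 of 14 paternally expressed genes lie below 0, and 5 of 13 maternally expressed genes do.

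Igf2 is expressed from the paternal allele and drives fetal growth through the type 1 IGF receptor. Its level was 10.26 and 9.81 in detached D4 RNAs and 10.53, 10.88 and 8.12 in attached D4 RNAs, against 12.55, 10.84 and 11.43 in early D4 RNAs. In C2 it was 9.97, 9.64 and 9.99 in detached RNAs and 10.55, 10.61 and 10.47 in attached RNAs, against 11.38, 10.91 and 11.76 in early RNAs. All 6 late C2 RNAs lay below all 3 early C2 RNAs, while in D4 the attached RNA 2 overlapped the early RNA 2. Igf2 fell by 1.41 on the log2 scale (SE 0.356, limma adjusted p = 0.0454, 95% interval -2.17 to -0.64). The change was -1.67 in D4 and -1.14 in C2, and neither line alone gave a call. The 8.12 belongs to the D4 attached RNA 3 with the high actin ratio, and without it the change was -1.19 with an adjusted p of 0.0135. The call is near the threshold, since it was kept in 5 of the 17 fits that left out 1 RNA each (C2 early 2, D4 early 2 and each D4 attached RNA), and without D4 early 1 it was -1.17 with an adjusted p of 0.154. The other Igf2 probe set was too dim to test.

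Igf2r, expressed from the maternal allele in the mouse, binds IGF2 and carries it to the lysosome, so the pair stand on opposite sides of the same growth signal. Its level was 10.65 and 11.02 in detached D4 RNAs and 10.85, 10.90 and 10.56 in attached D4 RNAs, against 12.23, 11.31 and 11.22 in early D4 RNAs. In C2 it was 10.40, 10.86 and 10.73 in detached RNAs and 11.07, 10.93 and 10.67 in attached RNAs, against 11.23, 11.30 and 11.59 in early RNAs. All 11 late RNAs were below all 6 early RNAs, with 11.07 as the highest late value and 11.22 as the lowest early one. Igf2r was the 1 imprinted gene of 31 with no overlap, where 79 of 14060 genes (0.562%) had none in either direction. It fell by 0.69 (SE 0.158, limma adjusted p = 0.0292), and the change was -0.78 in D4 and -0.60 in C2, neither called. Leaving out C2 early 1, C2 early 3, C2 detached 1, D4 early 1 or D4 detached 1 ended the call, at adjusted p-values up to 0.0831. The second Igf2r probe set changed by -0.11 (SE 0.175) and was not called, so the gene's probe sets differ.

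The start regions of both genes are shown with their CpG, the letter pair at which DNA is methylated. The windows were set by the start sites and were not chosen as the regions that carry the imprints. RefSeq's table for GRCm38.p6 held windows of 250 bases before to 50 bases after a start site for 38 of the 45 listed genes. The single Igf2r window and the most downstream of the 4 Igf2 windows follow 5′ to 3′, with each CG in capitals. They lie at chr17:12769657-12769956 and chr7:142657447-142657746, both on the minus strand.
Igf2r: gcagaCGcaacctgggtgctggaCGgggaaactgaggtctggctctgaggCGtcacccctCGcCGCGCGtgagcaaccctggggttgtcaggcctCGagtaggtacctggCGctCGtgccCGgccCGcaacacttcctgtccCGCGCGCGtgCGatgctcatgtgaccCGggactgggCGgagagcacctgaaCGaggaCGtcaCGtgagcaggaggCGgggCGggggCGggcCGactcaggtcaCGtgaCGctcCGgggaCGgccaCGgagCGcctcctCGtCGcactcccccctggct
Igf2: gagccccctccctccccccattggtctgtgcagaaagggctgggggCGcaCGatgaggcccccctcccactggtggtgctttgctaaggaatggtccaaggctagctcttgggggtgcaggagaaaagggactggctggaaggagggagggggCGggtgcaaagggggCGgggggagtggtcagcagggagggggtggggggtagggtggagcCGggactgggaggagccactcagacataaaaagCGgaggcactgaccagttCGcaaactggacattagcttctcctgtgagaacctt
The Igf2r window holds 34 CG, a count reached by 7.73% of all 32851 windows, and the Igf2 window holds 7, reached by 52.1%. The letters CG, which read the same on both strands, occur in 94.6% of windows, with a median of 7. The other 3 Igf2 windows hold 2, 14 and 24 CG. The arrays do not tell the start sites of a gene apart, and methylation was not measured.

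Sgce is a paternally expressed neighbour of Peg10 and a member of the sarcoglycan family at the cell membrane. Its level was 8.83 and 9.43 in detached D4 RNAs and 9.79, 9.65 and 9.54 in attached D4 RNAs, against 10.36, 10.32 and 10.61 in early D4 RNAs. In C2 it was 9.41, 9.60 and 9.71 in detached RNAs and 9.34, 9.90 and 10.08 in attached RNAs, against 9.95, 10.27 and 10.73 in early RNAs. The late D4 RNAs were all below the early D4 RNAs, and in C2 1 attached RNA, at 10.08, reached above the lowest early RNA. Sgce fell by 0.84 (SE 0.151, limma adjusted p = 0.00858) and the call held in all 17 fits that left out 1 RNA. In D4 alone it fell by 1.04 (adjusted p = 0.0376), 1 imprinted gene beside 95 of 14060 genes (0.676%), and 10 of the 17 such fits lost that call, the highest adjusted p being 0.186 without D4 early 1. In C2 alone the change was -0.64, with 0 of 31 imprinted genes and 7 of 14060 genes (0.0498%) called by limma, and 5 of 31 and 1165 of 14060 under an unadjusted p of 0.05. The second Sgce probe set, on MOE430B, changed by 0.39 (SE 0.419), the other way and not called. In D4 it changed by 1.44 (SE 0.604, limma unadjusted p = 0.0315, adjusted p = 0.471) and in C2 by -0.67 (SE 0.58). In D4, where the brightest probe set was called lower, the 2 probe sets thus had opposite signs. On MOE430B all early D4 arrays were of another chip lot than the late D4 arrays, so the D4 change of this probe set is confounded with lot.

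**Figure D2:**
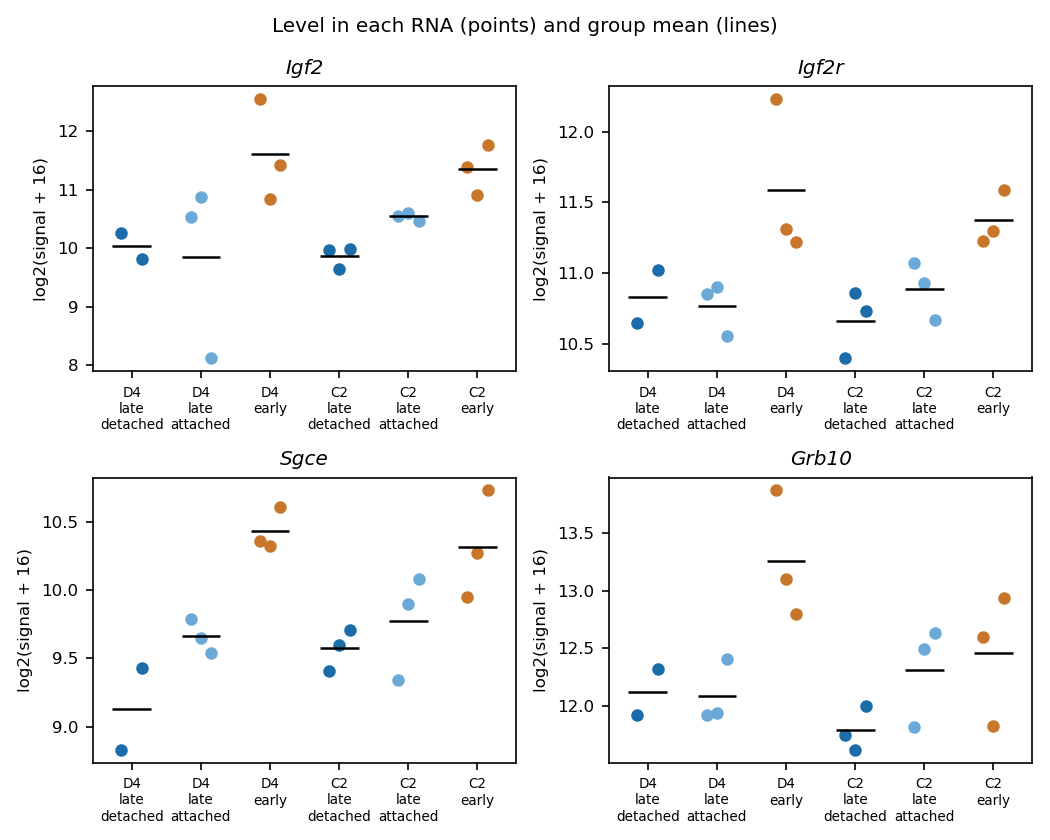
Level on the log2(signal + 16) scale of Igf2, Igf2r, Sgce and Grb10 in each of the 17 RNAs (points) with the group means (lines), D4 left and C2 right. All late Igf2r points lie at 11.07 or lower and all early ones at 11.22 or higher, while the D4 attached RNA 3 is the lowest Igf2 point at 8.12.

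Grb10 codes for an adaptor that inhibits the insulin and IGF receptors, and its parental allele differs between brain and most other tissues. It had 11.92 and 12.32 in detached D4 RNAs and 11.92, 11.94 and 12.41 in attached D4 RNAs, against 13.87, 13.10 and 12.80 in early D4 RNAs. In C2 it had 11.75, 11.62 and 12.00 in detached RNAs and 11.82, 12.49 and 12.63 in attached RNAs, against 12.60, 11.83 and 12.94 in early RNAs. Late and early RNAs were separate in D4 and overlapped in C2. Sgce, Igf2r, Cd81, Commd1, Copg2 and Gnas were likewise separate in D4, and Igf2, Igf2r and Cdkn1c in C2, all lower in late RNAs. The share of all genes separate within 1 line is not given here, so these separations only describe the values. The brightest probe set changed by -0.78 (SE 0.204) and missed the threshold at an adjusted p of 0.0527, while 1 of 2 dimmer ones fell by 1.01 with an adjusted p of 0.0171. The brightest one was called in the fits without C2 early 2 and without D4 early 3, at -0.94 and -0.89, and also with a pseudocount of 64, with array weights and with the filter at the 75th percentile. Grb10 carries 45 and 9 CG in its 2 start windows.

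Markers of other cells also moved between late and early RNAs. Over all genes tested, 180 of 14060 (1.28%) were called lower by limma in late RNAs and 81 (0.576%) higher. Of 7 tested trophoblast markers, the keratins Krt8 (-2.71) and Krt18 (-2.73) were called lower and no other was called, with a list median of -0.36. Cdx2, Elf5 and Gata3 were above the array median in 0 RNAs, but Tfap2c was in 17, Hand1 in 16, Eomes in 14, Plac1 in 9 and Krt7 in 4. The summed signal of the 10 trophoblast genes was 7436 to 12590 in late D4 RNAs, against 17840 to 60570 in early D4 RNAs, and 6126 to 11130 in late C2 RNAs, against 12230 to 120600 in early C2 RNAs. That sum mostly follows Krt18 and Krt8, which averaged 13.90 and 13.62 in early D4 cells. Tfap2c came next, at 10.72 in early, 10.58 in attached and 10.68 in detached D4 cells. Of 10 tested extraembryonic endoderm markers, Cubn (2.83), Dab2 (1.16), Lama1 (1.11) and Amn (0.75) were called higher and 0 lower, with a list median of 0.46. The transcription factors Gata4, Gata6, Sox17, Sox7 and Foxa2, and Ttr, were not called. Among these, Sox7 and Ttr had lower group means in both late states of D4 than in early D4 cells. The summed signal of the 12 endoderm genes was 9255 to 15050 in late D4 RNAs, against 6090 to 9103 in early D4 RNAs, and 9801 to 13320 in late C2 RNAs, against 5478 to 8700 in early C2 RNAs. The part of these 2 lists in the changes of the imprinted genes was not tested.

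Feeder genes moved in the same direction as these 4 genes. Across the 17 RNAs, the correlation of a gene's level with the mean level of the feeder genes was 0.79 for Sgce, 0.76 for Grb10, 0.71 for Igf2r and 0.62 for Igf2. These values share the arrays and the split between late and early, by which the genes were picked out. The other tested imprinted genes ran from -0.56 for Ube3a to 0.59 for Gnas. The D4 early RNA 1, highest for Igf2, Igf2r and Grb10, had the highest feeder mean, 11.93, against 10.92 to 11.60 in the other early RNAs. Sgce was highest in the C2 early RNA 3, at 10.73, where the feeder mean was 11.3. With the feeder mean as a covariate, 0 of 14060 genes were called by limma between late and early RNAs. Igf2 then changed by -1.53 (SE 1.06), Igf2r by -0.31 (SE 0.456), Sgce by -0.70 (SE 0.446) and Grb10 by 0.52 (SE 0.472). The covariate itself differs between the groups, and the standard errors rose with it.

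Detached and attached late cells differed in feeder genes, and no imprinted gene was called between them. Between detached and attached late cells the feeder genes had a median change of -1.52, with 7 of 19 lower, while the 31 imprinted genes had a median of -0.01 and ran from -0.61 to 0.73. Of the imprinted genes, 0 were called by limma there and 0 had an unadjusted p under 0.05, beside 38 of 14060 genes called (0.27%). Igf2 changed by -0.24 (95% interval -1.16 to 0.68), Igf2r by -0.08 (-0.49 to 0.32), Sgce by -0.36 (-0.75 to 0.02) and Grb10 by -0.25 (-0.77 to 0.28). Between attached and early cells the feeder genes had a median change of -0.68, and Igf2 changed by -1.29, Igf2r by -0.65, Sgce by -0.66 and Grb10 by -0.66. In that comparison 0 of 31 imprinted genes and 24 of 14060 genes (0.171%) were called by limma, and 9 of 31 and 1456 of 14060 had an unadjusted p under 0.05. Between detached and early cells the feeder median was -2.53, and Sgce, at -1.02 (adjusted p = 0.00543), and Igf2r, at -0.73 (adjusted p = 0.0433), fell. Those 2 calls stand beside 377 of 14060 genes (2.68%), 268 of them lower (1.91%), and Igf2 at -1.53 was not called. The Igf2r call was kept in 6 of the 17 fits that left out 1 RNA, and without D4 detached 1 it stood at -0.64 with an adjusted p of 0.177.

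**Figure D3:**
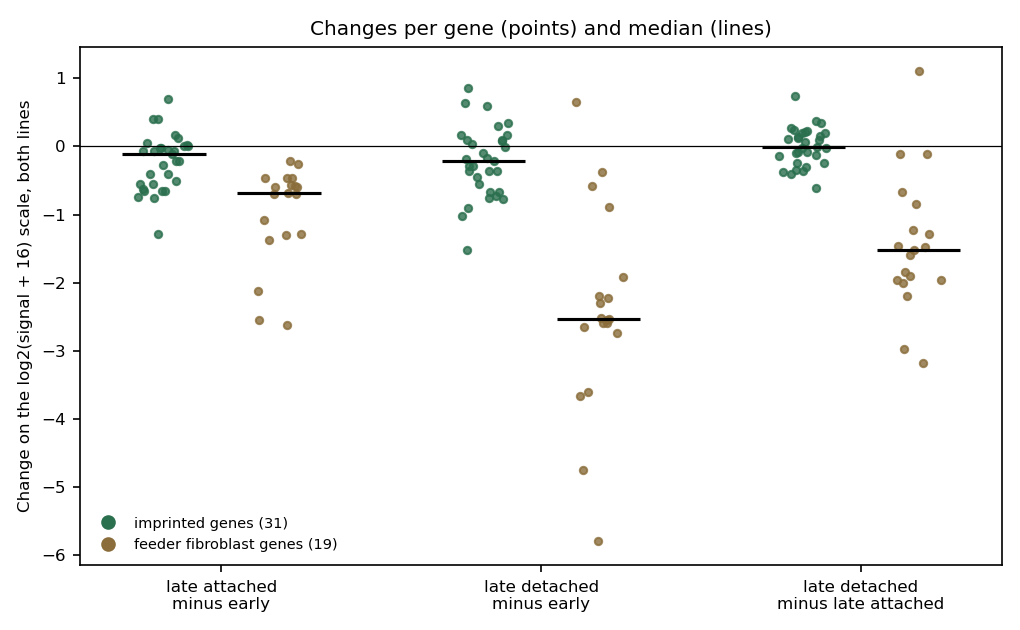
Change of each tested imprinted gene (31 points) and each tested feeder fibroblast gene (19 points) over both lines on the log2(signal + 16) scale, with medians as lines, in 3 comparisons that share RNAs with each other. The feeder medians are -0.68, -2.53 and -1.52 from left to right, and those of the imprinted genes are -0.12, -0.22 and -0.01.

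The scan days were set apart by a contrast chosen after the data were seen, which keeps only groups scanned together on MOE430A, that is late with early C2 cells and detached with early D4 cells. In it Sgce changed by -0.97 (adjusted p = 0.00688) and was the 1 imprinted gene called, beside 243 of 14060 genes (1.73%). Igf2r changed by -0.67 (adjusted p = 0.0586) and Igf2 by -1.36 (adjusted p = 0.0902), sizes near those over all groups. Detached against early D4 cells, scanned on 1 day, had a Sgce change of -1.31 (adjusted p = 0.0345), 1 imprinted gene beside 88 of 14060 genes (0.626%).

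Among the other genes near the H19-Igf2 and Kcnq1 clusters, no level passed the test. Cdkn1c, the maternally expressed cell cycle inhibitor p57, had 9.44 and 8.87 in detached D4 RNAs and 9.47, 10.01 and 8.32 in attached D4 RNAs, against 9.81, 9.13 and 10.41 in early D4 RNAs. In C2 it had 9.80, 9.53 and 9.41 in detached RNAs and 10.26, 9.09 and 9.94 in attached RNAs, against 10.42, 10.81 and 10.26 in early RNAs. All 6 late C2 RNAs lay below all 3 early C2 RNAs, the nearest pair both rounding to 10.26, and the D4 RNAs overlapped. Its change was -0.70 (SE 0.264, adjusted p = 0.171). Phlda2, which restrains growth of the placenta, changed by 0.11, the trophoblast factor Ascl2 by -0.29, the solute carrier Slc22a18 by 0.49, the tetraspanin Cd81 by -0.34, Tssc4 by 0.12, the histone chaperone family member Nap1l4 by 0.06 and the antisense RNA Kcnq1ot1 by -0.12. H19, the maternally expressed noncoding RNA next to Igf2, has no probe set of 1 symbol and was not analysed here.

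In the Dlk1-Dio3 cluster the paternally expressed Dlk1, a membrane protein related to Notch ligands, and the maternally expressed noncoding RNA Meg3 gave no call. Dlk1 had 9.16 and 9.17 in detached D4 RNAs and 9.0, 9.63 and 10.85 in attached D4 RNAs, against 10.36, 9.56 and 9.82 in early D4 RNAs. In C2 it had 9.33, 8.49 and 9.67 in detached RNAs and 10.07, 9.48 and 9.62 in attached RNAs, against 8.89, 9.53 and 10.18 in early RNAs. Late and early RNAs as a whole overlapped, and the change was -0.25 (SE 0.278). Meg3, a gene whose silencing is known in some mouse ES and iPS cell lines, had 13.33 and 13.64 in detached D4 RNAs and 13.91, 13.51 and 14.53 in attached D4 RNAs, against 14.05, 13.81 and 13.20 in early D4 RNAs. In C2 it had 13.73, 13.24 and 13.92 in detached RNAs and 13.35, 13.77 and 14.12 in attached RNAs, against 13.72, 12.87 and 13.13 in early RNAs. All 17 values lay between 12.87 and 14.53, above the array median. Its change was 0.24 (SE 0.224), and its 10 tested probe sets changed by -0.29 to 0.44, none called.

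Of the Snrpn-Ube3a cluster, the region of the human Prader-Willi and Angelman syndromes, 3 genes were tested. The growth suppressor Ndn changed by -0.61 (SE 0.219, adjusted p = 0.15), with all 7 of its tested probe sets below 0, from -0.75 to -0.09. Its paternally expressed relative Magel2 changed by -0.16, and the ubiquitin ligase Ube3a, imprinted in neurons, by 0.52 (adjusted p = 0.237). The Snrpn probe set of 1 symbol was above the array median in 1 RNA and was not tested. It read 8.04 and 8.48 in detached D4 RNAs and 6.74, 7.14 and 7.40 in attached D4 RNAs, against 7.29, 7.30 and 6.33 in early D4 RNAs. In C2 it read 7.80, 9.36 and 7.30 in detached RNAs and 8.10, 7.05 and 7.99 in attached RNAs, against 7.14, 8.91 and 6.94 in early RNAs. Other probe sets that carry Snrpn together with Snurf were not used.

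The paternally expressed zinc finger gene Peg3 and Mest, a gene of the hydrolase family long used as a marker of imprinting, gave no call. Peg3 had 13.39 and 13.51 in detached D4 RNAs and 13.39, 12.55 and 12.92 in attached D4 RNAs, against 12.68, 12.72 and 12.92 in early D4 RNAs. In C2 it had 12.93, 12.94 and 12.92 in detached RNAs and 12.60, 12.81 and 12.81 in attached RNAs, against 12.83, 13.61 and 12.28 in early RNAs. Late and early RNAs as a whole overlapped, and the change over both lines was 0.18 (SE 0.174). Mest had 11.66 and 11.49 in detached D4 RNAs and 11.59, 11.31 and 10.70 in attached D4 RNAs, against 11.64, 11.58 and 10.91 in early D4 RNAs. In C2 it had 11.66, 11.24 and 11.47 in detached RNAs and 11.36, 11.40 and 11.51 in attached RNAs, against 11.57, 11.57 and 11.31 in early RNAs. The groups overlapped, and the change was -0.01 with a 95% interval of -0.34 to 0.31. Copg2, a coat protein gene next to Mest, changed by -0.22 and overlapped between late and early RNAs as a whole.

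Peg10, the retrotransposon-derived gene beside Sgce that the placenta needs, was above the array median in 0 RNAs and was not tested. It read 8.56 and 5.96 in detached D4 RNAs and 7.77, 7.04 and 7.54 in attached D4 RNAs, against 8.88, 8.10 and 8.09 in early D4 RNAs. In C2 it read 7.52, 7.78 and 7.92 in detached RNAs and 7.41, 7.26 and 7.22 in attached RNAs, against 5.40, 7.56 and 8.43 in early RNAs. The values overlapped between late and early RNAs in both lines. The other 8 genes too dim to test were Asb4, Gatm, Mkrn3, Nap1l5, Osbpl5, Peg12, Usp29 and Zim1. Rtl1, Dio3 and Zrsr1 had no probe set of 1 symbol and, with H19, were not analysed here.

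The other tested genes ran from -0.75 to 0.64. Neuronatin (Nnat) changed by -0.75 (SE 0.433), the zinc finger factor Plagl1, which acts on a network of imprinted genes in the mouse, by -0.72 (SE 0.305), the stimulatory G protein gene Gnas by -0.44 (adjusted p = 0.104) and the amino acid transporter Slc38a4 by -0.42 (adjusted p = 0.104). The inositol phosphatase Inpp5f had the highest change, 0.64 (adjusted p = 0.461). Its second tested probe set averaged 10.03, 9.76 and 9.70 in detached, attached and early D4 cells, and 9.32, 10.29 and 9.84 in those of C2. Smaller changes were those of the Ras exchange factor Rasgrf1 (-0.25), the GCN2 inhibitor Impact (-0.19), Blcap (-0.21), the Igf2r antisense RNA Airn (-0.08), neurabin (Ppp1r9a, 0.09) and Commd1 (0.01). None of these passed the test.

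The changes of paternally and maternally expressed genes were summarised side by side as a description. By their brightest probe sets, paternally expressed genes had a median change of -0.25 between late and early RNAs, 13 of 14 below 0, with Peg3 above. In D4 alone and between groups scanned on 1 day 11 of 14 lay below 0, and leaving out 1 RNA gave medians of -0.387 to -0.103. Dimmer tested probe sets of Sgce, Impact, Kcnq1ot1 and Slc38a4 lay above 0 between late and early RNAs over both lines. Those of Ndn, Plagl1, Airn and Peg3 lay below 0, as did another of Kcnq1ot1. Maternally expressed genes had a median of 0.06 with 5 of 13 below 0, or 0.112 over the 5 that are imprinted widely, and all 14060 genes had a median of -0.02 with 7328 below 0. The mean level of the paternal set was 10.29 ± 0.07 (SD, n = 2) in detached D4 RNAs and 10.36 ± 0.27 (n = 3) in attached D4 RNAs, against 10.80 ± 0.33 (n = 3) in early D4 RNAs. In C2 it was 10.35 ± 0.21 in detached RNAs and 10.48 ± 0.09 in attached RNAs, against 10.75 ± 0.18 in early RNAs (n = 3 each). The mean level of the maternal set was 11.10 ± 0.19, 11.00 ± 0.13 and 11.16 ± 0.05 in detached, attached and early D4 RNAs, and 11.18 ± 0.01, 11.04 ± 0.10 and 11.09 ± 0.11 in those of C2. In the paternal set the late RNAs of C2 all lay at 10.54 or lower and the early ones at 10.59 or higher, while in D4 the attached RNAs reached 10.63 and the early ones began at 10.60. The difference between the parental sets was not tested, since the genes were chosen with results known. Between detached and attached cells the medians were -0.07 for the paternal and 0.12 for the maternal set, and between D4 and C2 they were -0.06 and 0.04.

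**Figure D4:**
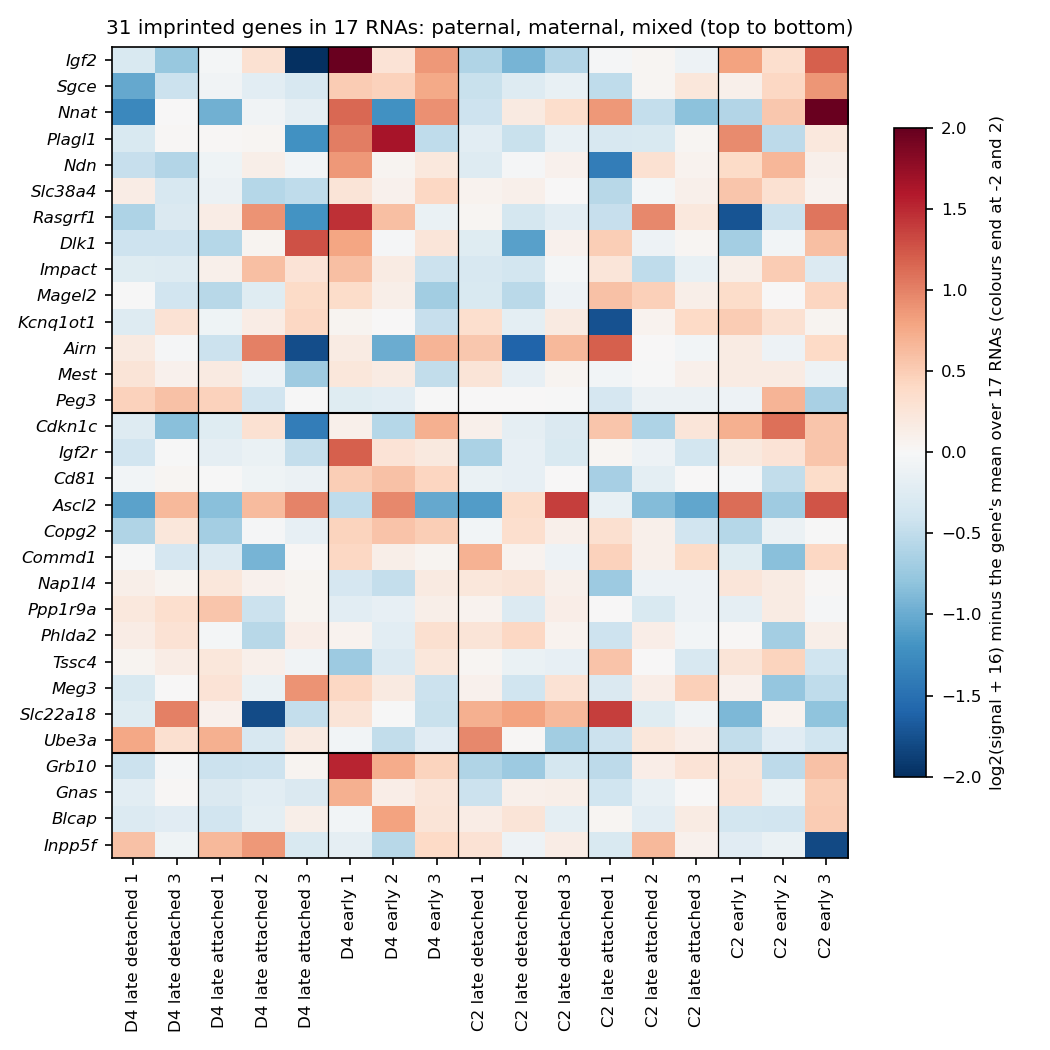
Level of the 31 tested imprinted genes in each of the 17 RNAs, as the deviation from the gene's mean over all RNAs on the log2(signal + 16) scale, with paternally expressed genes on top, maternally expressed genes below them and the genes of mixed allele at the bottom. The deviations of Igf2, Sgce, Igf2r and Grb10 are mostly positive in early columns, with single low or high cells such as Igf2 in the D4 attached RNA 3, at 8.12.

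No imprinted gene was called between the lines. Over all states, 0 of 31 imprinted genes and 0 of 14060 genes (0%) were called by limma between D4 and C2, while 1 imprinted gene, Cd81, and 865 genes had an unadjusted p under 0.05. The estimated differences of D4 minus C2 ran from -0.54 for Cdkn1c (95% interval -1.09 to 0.00) to 0.33 for Inpp5f (-0.27 to 0.93), and were -0.09 (-0.82 to 0.64) for Igf2 and 0.09 (-0.24 to 0.41) for Igf2r. In early cells, Cd81 and Copg2 were higher in all 3 D4 RNAs than in all 3 C2 RNAs, 2 of 31 genes beside 1424 of 14060 (10.1%), and neither was called. On MOE430A, which holds both probe sets, the early D4 arrays were scanned on another day than the early C2 arrays, so line and scan day cannot be told apart there. Copg2 had 10.95, 11.06 and 10.99 in early D4 RNAs, against 9.93, 10.38 and 10.49 in early C2 RNAs. The test of whether the late to early change differed between the lines called 0 of 31 imprinted genes and 1 of 14060 genes (0.00711%) by limma. Copg2, at -1.04 (SE 0.326, adjusted p = 0.535), and Commd1, at -0.97 (SE 0.394, adjusted p = 0.603), were the 2 of 31 with an unadjusted p under 0.05, as were 874 of 14060 genes. Copg2 changed by -0.74 in D4 and 0.30 in C2.

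Other lists give the surroundings of these genes. Of 16 genes known to lay down or keep imprints, 1 was called higher by limma in late RNAs and 0 lower, beside 261 of 14060 genes (1.86%) called. This was Zfp57, a zinc finger protein that holds methylation at imprinted regions, at 0.96 (limma adjusted p = 0.0465, near the threshold). The median of the list was 0.25, the methyltransferases Dnmt1, Dnmt3a and Dnmt3b changed by 0.12, 0.52 and 0.11, the cofactor Trim28 by 0.19, and the insulator protein Ctcf, which binds next to H19, by 0.39 (adjusted p = 0.121). Of 11 tested genes of the IGF axis, 0 were called by limma and 4 had an unadjusted p under 0.05, with a median of -0.37. The binding proteins Igfbp2 and Igfbp3 changed by -0.71 and -0.85, and in detached against early cells both fell. There, 2 of the 11 were called lower by limma, beside 268 of 14060 genes (1.91%). The receptor gene Igf1r changed by -0.37 (SE 0.173, adjusted p = 0.485). The feeder genes moved with both of these comparisons as given above, and their part in the changes of these 2 lists was not tested.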

How the data were processed

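Total RNA of 17 samples was hybridised to 34 arrays, 1 MOE430A and 1 MOE430B array each. The authors deposited 1 intensity for each probe set, and the submitters' processing notes name MAS5 as the tool; its version is not given in the sources used here. MAS5 sets mismatch probes against perfect match probes and scales each array to a common trimmed mean, so a change is relative to the bulk of genes and dim signals are imprecise. The array number limits the precision.

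Groups came from the sample descriptions. The intensities were turned into log2(signal + 16) and fitted with limma 3.58.1 (R 4.3.3), 1 mean per line and state over all 17 RNAs, each array type by itself, after leaving out control probe sets and those above the array median in fewer than 2 RNAs. The Benjamini-Hochberg adjustment ran within each array type. Genes were named through the platform annotation, updated by gene ID, and probe sets with several symbols (691 on MOE430A, 245 on MOE430B) were left out, H19 among them. Every listed gene is named, with the value in each RNA for genes called in any comparison and for Dlk1, Meg3, Peg3, Mest, Snrpn, Cdkn1c, Grb10 and Peg10. The members and gene lists were chosen with earlier results of these data known. The fit was also run on simulated data, with outcomes that are not given here. The alternatives were another pseudocount (1 or 64), no filter or the 75th percentile, quantile normalization, array weights, blocks for replicate number and fluidics run, chip lot, the feeder list as a covariate, another probe set per gene, other class members, and leaving out RNAs.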

Additional observations from a re-analysis of the deposited data

How the results depend on the processing

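Calls over all genes tested are given in brackets. The number of imprinted genes called between late and early cells, 3 (261), was 1 with no filter (140 of 18193 genes). It was 5 with the filter at the 75th percentile (391 of 8758 genes), 0 (0) with the feeder list as a covariate and 1 (243) between groups scanned on 1 day. It was 4 (277) with a pseudocount of 64 and 4 (398) with array weights, both adding Grb10. When 1 RNA outside detached D4 cells was left out it was 1 to 4 (120 to 338). The 2 calls (377) between detached and early cells became 4 (398) with a pseudocount of 64, 1 (190) with no filter and 3 (551) at the 75th percentile. They became 1 (265) with quantile normalization, 5 (988) with array weights, 1 (281) with the replicate block and 0 (0) with the feeder list as a covariate. There were 5 (453) without C2 attached 1 and D4 attached 3. When 1 RNA outside detached D4 cells was left out there were 1 to 4 (182 to 468). The 1 call (95) in D4 became 0 (29) with no filter, 2 (216) at the 75th percentile and 0 (68) with quantile normalization. It became 2 (162) with array weights and 0 (0) with the feeder list as a covariate. When 1 RNA outside detached D4 cells was left out it was 0 to 2 (4 to 149). The filter changes how many genes the adjustment covers, and Sgce is not in the set at the 75th percentile; for the other settings the cause was not tested. The counts of 0 in the other 5 comparisons stayed 0 under the settings run.

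The replicate numbers did not pair the RNAs. Same-numbered RNAs of different groups correlated by -0.22 to 0.18 in their deviations from the group means on MOE430A, with 7 of 40 pairs over 0.1. With the replicate block, the calls between late and early cells were Igf2r and Sgce, beside 235 of 14060 genes. Igf2 then stood at -1.41 with a limma adjusted p of 0.0525. Quantile normalization also left 2 calls, beside 232 of 14060 genes, and gave Igf2 a limma adjusted p of 0.0558.

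The median changes of the paternal and maternal sets depended on single RNAs, and some changed sign. When 1 RNA was left out, the paternal median between late and early cells was -0.387 to -0.103 and the maternal median -0.012 to 0.123. Between detached and attached cells they were -0.192 to 0.041 and 0.092 to 0.158, and between D4 and C2 they were -0.121 to -0.004 and -0.005 to 0.15. Probe sets near or under the array median, as those of 10 listed genes, limit what can be seen.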
